A study of Mus musculus with 4 samples.

Results

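The genes of MHC class II presentation were taken as the 10 symbols H2-Aa, H2-Ab1, H2-Eb1, Cd74, Ciita, H2-DMa, H2-DMb1, H2-DMb2, H2-Oa and H2-Ob, chosen by name. They are 10 of the 24063 gene symbols in the deposited tables, and all 10 passed the filter on low counts that left 16208 genes for the test. RNA was sequenced from lung endothelial cells (ECs) of C57BL6J mice aged 8 weeks, which had been pulled out of digested lung with anti-CD31 magnetic beads. Sham-operated mice had a thoracotomy, and the post-PNX mice had the left lung removed (pneumonectomy) 7 days earlier. Each group had 2 libraries, 4 in all, and each library pooled the cells of 2 mice that carried no transgene. The study checked the isolated ECs by flow cytometry as CD31+ and VE-Cadherin+ and negative for CD45, a leukocyte marker, and the beads were the only selection that it describes. It plated ECs isolated this way for later experiments, and whether the sequenced cells spent time in culture is not given in the sources used here.

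MHC class II molecules display peptides from proteins taken up by a cell to CD4+ T cells. H2-Aa and H2-Ab1 encode the α and β chains of I-A, and H2-Eb1 encodes the β chain of I-E. New class II molecules are held by the invariant chain, the product of Cd74, until endosomal proteases cut it down to a fragment that stays in the peptide groove. The chaperone H2-M (H2-DMa with H2-DMb1 or H2-DMb2) releases this fragment and lets peptides bind, and H2-O (H2-Oa with H2-Ob), best known from B cells, holds H2-M in check. Ciita is the coactivator that switches the class II promoters on. B cells, dendritic cells and macrophages are the textbook class II cells, and in the lung alveolar type 2 cells and capillary ECs also carry class II.

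With 1 transcript counted per gene, the libraries held between 41367438 and 50952879 counts, and the smallest count of any class II gene in any library was 158. Against the label of male mice, the 44 genes of chromosome Y that the tables list were at 0 counts throughout, whereas Xist reached 31872 to 33792 normalized counts per library. This holds for both groups alike. Of the endothelial markers 12 of 12 genes were detected, and they summed to between 506029 and 618193 normalized counts per library. Detection alone does not show what share of the cells were ECs, and ECs below means the cells as labelled. Markers of other cells were present too. The alveolar type 2 list (8 genes) summed to 332995 and 333610 normalized counts in the sham libraries and to 216341 and 214856 after PNX. As FPKM (explained below) this list summed to 3798 and 3803 in sham libraries and 2490 and 2467 after PNX. The endothelial list was lower on that scale, with 2335 and 2362 in sham libraries and 2011 and 2017 after PNX. Most of the type 2 sum came from 1 gene, Sftpc, with 2893 FPKM in sham libraries and 1889 after PNX, as means. The order of the 2 sums therefore does not hold for type 2 markers in general. B cell, T cell, dendritic cell and macrophage markers were all above 0. In these bulk samples fewer cells of a type and less RNA per cell cannot be told apart.

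Levels of different genes are compared per length, as the deposited FPKM (counts divided by transcript length and library total). In sham ECs Cd74 had the highest level, 397 ± 3.17 FPKM (SD, n = 2), followed by H2-Aa at 233 ± 0.894, H2-Ab1 at 177 ± 2.03 and H2-Eb1 at 106 ± 0.0847 FPKM. The chaperone genes were far lower, with 22.4 ± 0.135 FPKM for H2-DMa, 17.5 ± 0.231 for H2-DMb1 and 11.9 ± 0.316 for H2-DMb2. H2-Ob at 8.40 ± 0.228, Ciita at 5.04 ± 0.119 and H2-Oa at 3.88 ± 0.334 FPKM were the lowest. Each neighbour in this order differed by more than the spread of its 2 libraries. After PNX the order was the same except that Ciita (5.14 ± 0.202 FPKM) and H2-Ob (4.78 ± 0.321 FPKM) changed places and lay within their spread of each other, as did H2-DMa (25.7 ± 0.312 FPKM) and H2-DMb1 (25.4 ± 0.668 FPKM).

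**Figure D1:**
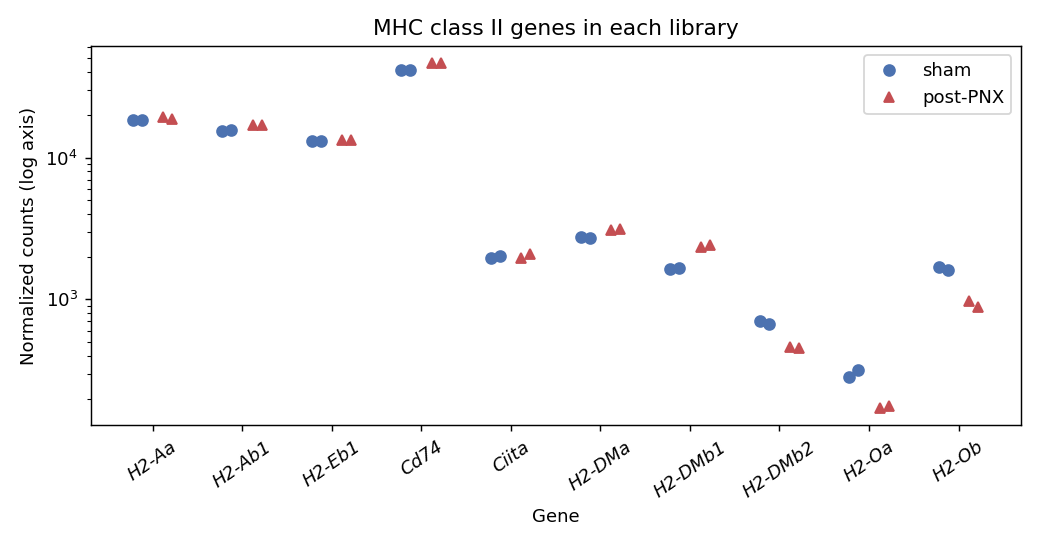
Normalized counts (log axis) of the 10 class II genes in each library, with sham libraries as circles and post-PNX libraries as triangles. Cd74 lies highest in all 4 libraries, the post-PNX libraries of H2-DMb2, H2-Oa and H2-Ob lie below both sham libraries, and those of Ciita overlap with sham.

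The genes of the invariant chain and of I-A were slightly higher in post-PNX ECs. Cd74 (transcript NM_001042605) lies on chromosome 18 from 60803849 to 60812652, where the coordinates here and below are those of the whole RefSeq gene over all its transcripts. It had 41094 and 41540 normalized counts in sham ECs, against 46226 and 46147 after PNX. The groups did not overlap. The rise was 11.8%, which is 0.16 ± 0.017 as a log2 fold change (± SE), and its p-value, from the quasi-likelihood F test of edgeR and adjusted by Benjamini-Hochberg over all genes tested, was 8.6e-13. H2-Ab1 (NM_207105, chromosome 17 from 34263227 to 34269418) had 15383 and 15628 normalized counts in sham ECs and 16910 and 17013 after PNX. Both post-PNX libraries were again the higher ones, with a log2 fold change of 0.13 ± 0.020 (SE, edgeR, adjusted p = 4.6e-08).

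H2-Aa (NM_010378, chromosome 17 from 34282744 to 34287823) had 18259 and 18349 normalized counts in sham ECs and 19344 and 18815 after PNX. This was a rise of 4.24%, with a log2 fold change of 0.06 (edgeR, adjusted p = 0.0053). The call was lost in 5 alternatives, among them when either sham library or the first post-PNX library was left out (adjusted p up to 0.145). H2-Eb1 (NM_010382, chromosome 17 from 34305867 to 34316674) had 12997 and 13005 normalized counts in sham ECs and 13279 and 13335 after PNX. Its log2 fold change of 0.03 ± 0.020 (SE) did not pass (adjusted p = 0.142, edgeR). I-E needs an α chain from H2-Ea, which the C57BL6 haplotype is known not to express. The tables list it as H2-Ea-ps, with raw counts of 1 and 0 in sham ECs, then 0 and 1 after PNX, so H2-Eb1 RNA was abundant where that of its partner was at the floor of 3 counts.

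Cd74 has a longer and a shorter transcript in the tables, which differ by an exon of 192 bases on chromosome 18 from 60811294 to 60811485. The longer transcript encodes the form of the invariant chain with an extra thyroglobulin-type domain. Reads counted on the longer transcript alone numbered 533 and 498 in sham ECs, against 596 and 475 after PNX. They made up 1.17% and 1.22% of the count of the longer transcript in sham ECs and 1.27% and 1.15% after PNX. The groups overlapped in this share. It sets reads of the 192-base exon against reads of the whole longer transcript, so it is not the share of Cd74 RNA in the longer form.

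Ciita (NM_001243760, chromosome 16 from 10480014 to 10531064) had 1954 and 2019 normalized counts in sham ECs and 1957 and 2075 after PNX. The groups overlapped, and the log2 fold change of 0.02 ± 0.038 (SE) did not pass (adjusted p = 0.657, edgeR). Its 3 transcripts in the tables start at different promoters, but their counts differed by at most 18 in any library, so the tables cannot show which start was used. Of the 7 factors that bind the class II promoters next to Ciita, Rfx5 (log2 fold change 0.14) was higher past an adjusted p of 0.01 and Creb1 (-0.34) was lower, while 5 did not pass. The list median was -0.03.

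On the interferon-γ route that induces Ciita, 3 of 8 genes were higher and 3 lower. Ifng itself, the T and NK cell cytokine, went from 50.7 and 38.7 to 84.5 and 82.5 normalized counts, a log2 fold change of 0.89 ± 0.20 (SE, edgeR, adjusted p = 7.4e-05). Both post-PNX libraries were above both sham libraries. Its receptor chain Ifngr1 had the largest fall of the list, with a log2 fold change of -0.12, and the kinase Jak1, highest in counts, had one of -0.11. Genes of the route besides Ifng were also among the higher ones, and the list median was 0.03. Irf1, a transcription factor of the route, had a log2 fold change of 0.05 that did not pass (adjusted p = 0.030, edgeR).

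The H2-M genes moved in different directions. H2-DMa (NM_010386, chromosome 17 from 34119693 to 34139101), the α chain, had 2749 and 2724 normalized counts in sham ECs and 3087 and 3149 after PNX. It was higher in both post-PNX libraries, with a log2 fold change of 0.19 ± 0.032 (SE, edgeR, adjusted p = 6.7e-07). H2-DMb1 (NM_010387, chromosome 17 from 34153191 to 34160229), a β chain, went from 1640 and 1670 to 2339 and 2433 normalized counts. This was the largest rise among the class II genes, 44.2%, with a log2 fold change of 0.53 ± 0.038 (SE, edgeR, adjusted p = 2.9e-19).

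The other β chain gene, H2-DMb2 (NM_010388, chromosome 17 from 34143229 to 34151553), went from 702 and 676 to 464 and 458 normalized counts. Each post-PNX library was lower than either sham library, and the log2 fold change was -0.58 ± 0.066 (SE, edgeR, adjusted p = 1.6e-11). The ratio of H2-DMb1 to H2-DMb2 FPKM was 1.43 and 1.51 in sham ECs, against 3.09 and 3.25 after PNX. The groups did not overlap, and the exact two-sided permutation test over the libraries gave p = 0.333, the smallest that 2 against 2 libraries allow. Added together, the β chain genes had 2342 and 2346 normalized counts in sham ECs and 2802 and 2891 after PNX, and fitted as 1 gene, an alternative chosen after the data were seen, they rose with a log2 fold change of 0.28 ± 0.034 (SE, edgeR, adjusted p = 8.2e-11).

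H2-DMb2 and H2-DMb1 lie next to each other on the same strand, with 1637 bases between them. Their transcripts are 94.6% identical over the aligned bases, so the authors' counting could have placed reads of one on the other. Of the 75-base stretches of the H2-DMb2 transcript, 18.8% occur without a mismatch in the H2-DMb1 transcript, and 19.1% the other way round. How reads that match both were counted is not given in the sources used here, so the values of both genes, and of their sum, are uncertain in this respect.

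Both H2-O genes fell. H2-Ob (NM_010389, chromosome 17 from 34238905 to 34245908), the β chain, had 1684 and 1620 normalized counts in sham ECs and 978 and 891 after PNX. The fall was 43.4%, with a log2 fold change of -0.82 ± 0.047 (SE, edgeR, adjusted p = 1.9e-23), the largest among the class II genes. H2-Oa (NM_008206, chromosome 17 from 34092379 to 34095234), the α chain, had 282 and 318 normalized counts in sham ECs and 172 and 176 after PNX. Its log2 fold change was -0.78 ± 0.10 (SE, edgeR, adjusted p = 1.6e-09), and no post-PNX library reached a sham library in either gene.

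The ratio of H2-Ob to H2-Oa FPKM was 2.35 and 2.00 in sham ECs, against 2.23 and 1.99 after PNX, and the groups overlapped. H2-DMa to H2-Oa was 6.17 and 5.42 in sham ECs and 11.4 and 11.3 after PNX. H2-DMb1 to H2-Ob was 2.02 and 2.14 in sham ECs and 4.97 and 5.68 after PNX. Per length, the H2-M genes thus stood higher above the H2-O genes in both post-PNX libraries, with the same smallest possible exact permutation p of 0.333 for each of these ratios. H2-Aa to H2-Ab1, the I-A chains, was 1.32 and 1.31 in sham ECs and 1.28 and 1.23 after PNX.

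**Figure D2:**
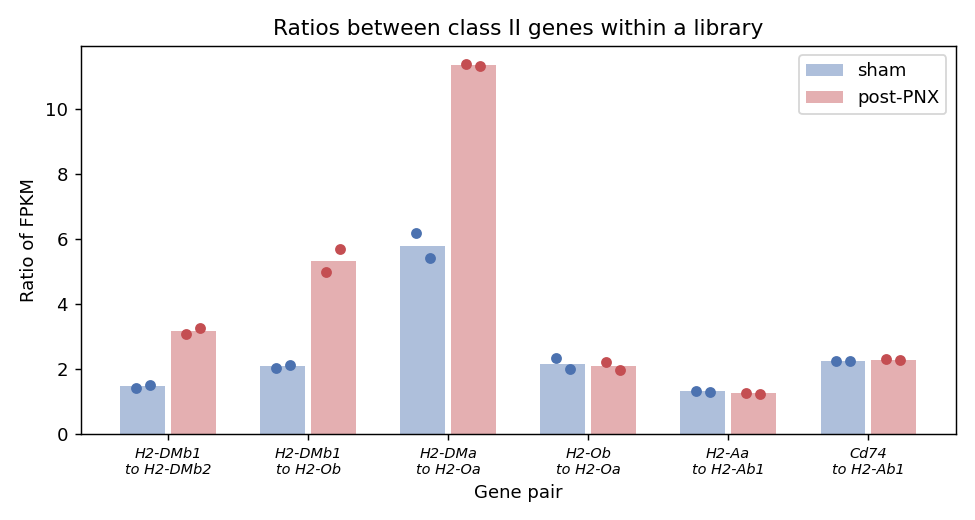
Ratio of FPKM for 6 pairs of class II genes, with bars for the mean of 2 libraries and points for the libraries. The 3 pairs with an H2-M gene above H2-DMb2 or an H2-O gene are higher in the post-PNX libraries. Cd74 to H2-Ab1 is also higher there, by less (2.25 and 2.24 in sham, 2.30 and 2.29 after PNX), and H2-Aa to H2-Ab1 is lower. H2-Ob to H2-Oa overlaps between the groups.

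H2-Oa is covered along its whole length by BC051537, an antisense gene on the other strand. BC051537 had 142 and 130 normalized counts in sham ECs and 82.5 and 83.6 after PNX, a log2 fold change of -0.72 (adjusted p = 2.9e-05, edgeR). The kit keeps the strand, but whether the counting used it is not given in the sources used here, so reads of the 2 genes may not have been told apart. Ciita also overlaps a gene on the other strand, Dexi, whose log2 fold change was -0.05 (edgeR, adjusted p = 0.551), and H2-DMa overlaps Brd2 in the same way (-0.09).

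Class II promoters share an X box, bound by the RFX complex, and a Y box, bound by NF-Y, on which Ciita assembles. RefSeq windows of 250 bases before and 50 after the annotated start (GRCm38.p6, the assembly of mm10) were found for 7 of the 10 genes and were searched on both strands for TGATTGG, a Y box form, and AACNNATG, part of an X box form. Both motifs were chosen after the windows had been read. TGATTGG was in 6 of the 7 genes, and AACNNATG in 4 of them, 18 to 21 bases before TGATTGG. Of 32851 windows of all genes 7.82% held TGATTGG, 8.86% held AACNNATG, and 20 windows (0.0609%) held AACNNATG at most 40 bases before TGATTGG on the same strand. The class II windows that hold the motifs are included in these counts. The stretches are shown because they carry the motifs in genes that rose, fell or did not pass, with the motifs in capitals, on the strand of the gene, 5′ to 3′.
H2-DMb1, chr17:34153083-34153147, + strand: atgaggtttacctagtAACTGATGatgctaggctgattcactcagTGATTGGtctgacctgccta
H2-DMb2, chr17:34145112-34145176, + strand: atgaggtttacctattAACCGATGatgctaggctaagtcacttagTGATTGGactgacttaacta
H2-Eb1, chr17:34305761-34305825, + strand: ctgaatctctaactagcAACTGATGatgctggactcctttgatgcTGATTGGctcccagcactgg
H2-Ob, chr17:34238801-34238865, + strand: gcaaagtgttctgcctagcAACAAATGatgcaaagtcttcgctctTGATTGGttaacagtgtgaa
H2-Oa, chr17:34092289-34092353, + strand: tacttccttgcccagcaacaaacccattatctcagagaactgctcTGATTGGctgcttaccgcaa
H2-Aa, chr17:34287854-34287918, - strand: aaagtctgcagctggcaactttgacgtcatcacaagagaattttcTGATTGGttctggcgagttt

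H2-DMb1, which rose, and H2-DMb2, which fell, have the motifs at the same spacing of 21 bases, and the 250 bases before the start that each window uses are 83.7% identical over the aligned bases. For H2-DMb2 this window lies inside the coordinates of the RefSeq gene, which begin further upstream. H2-Ob, which fell, and H2-Eb1, which did not pass, also hold both motifs, at spacings of 18 and 20 bases. Both motifs thus occurred in a gene that rose, in genes that fell and in one that did not pass. The same 250 bases of each paralog are given so that the differences outside the motifs can be seen.
H2-DMb1, chr17:34152941-34153190, + strand: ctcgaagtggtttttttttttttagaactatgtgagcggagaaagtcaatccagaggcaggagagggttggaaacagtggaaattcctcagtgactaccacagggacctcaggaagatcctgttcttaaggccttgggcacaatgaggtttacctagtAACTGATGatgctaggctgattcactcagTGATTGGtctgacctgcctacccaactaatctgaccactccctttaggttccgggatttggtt
H2-DMb2, chr17:34144999-34145248, + strand: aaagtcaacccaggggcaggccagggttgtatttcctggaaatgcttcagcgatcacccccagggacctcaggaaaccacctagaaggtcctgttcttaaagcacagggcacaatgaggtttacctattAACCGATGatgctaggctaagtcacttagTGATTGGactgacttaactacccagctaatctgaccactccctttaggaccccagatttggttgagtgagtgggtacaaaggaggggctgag

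**Figure D3:**
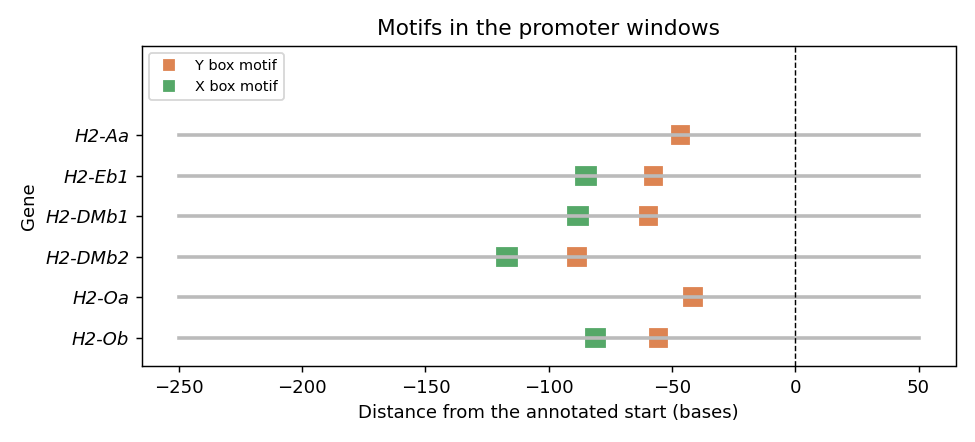
Place of the Y box motif (orange) and the X box motif (green) in the promoter windows of 6 class II genes, as distance in bases from the annotated start (dashed line). The Y box motif lies before the start in all 6 genes, and the X box motif precedes it in H2-Eb1, H2-DMb1, H2-DMb2 and H2-Ob.

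Of the 10 class II genes, 5 rose after PNX, 3 fell and 2 did not pass, at an adjusted p of 0.01 in the edgeR test. Over all genes tested the same rule called 57.1%, with 29.3% higher and 27.8% lower. The post-PNX libraries were both above both sham libraries in 6 of the 10 genes and both below in 3, against 40.8% and 40.5% of all genes tested. The median log2 fold change of the 10 genes was 0.05, and that of all genes tested was 0.00. None of the 10 had a log2 fold change beyond 1, at an adjusted p under 0.01 or at an unadjusted p under 0.05, in edgeR or in DESeq2, whereas 7.56% of all genes tested passed this fold threshold and the adjusted p of 0.01 (5.9% higher and 1.66% lower).

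The place of the genes among all genes tested differed. The log2 fold change was lower than that of H2-Ob in 3.39% of the genes tested, lower than that of H2-Oa in 3.68% and lower than that of H2-DMb2 in 6.87%. The corresponding share was 87.9% for H2-DMb1 and lay between 52.5% and 71.1% for the other 6. When counts were scaled to the 12 endothelial marker genes, which moved the median of all genes tested to 0.28, 7 class II genes were higher and 3 lower, against 9941 higher and 1301 lower among all 16208 genes tested. H2-Ob, H2-Oa and H2-DMb2 then had log2 fold changes of -0.54, -0.50 and -0.30.

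**Figure D4:**
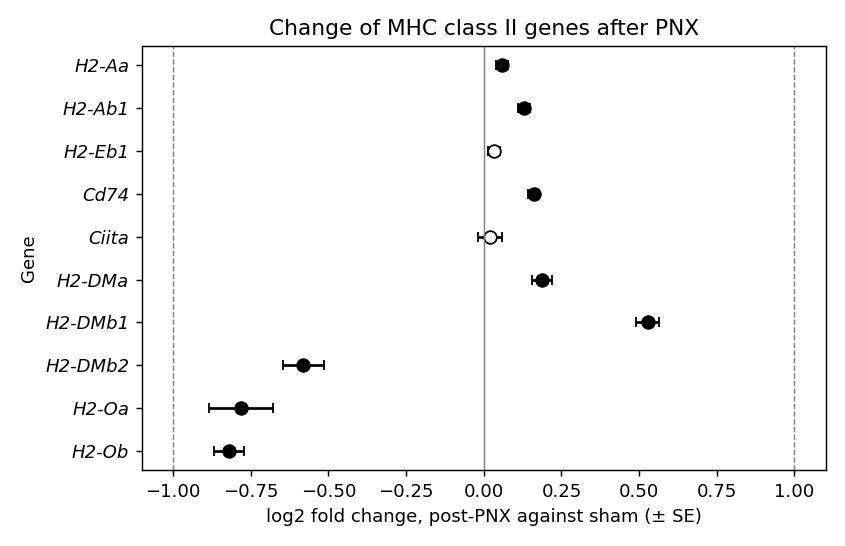
Log2 fold change of each class II gene, post-PNX against sham, with bars of 1 standard error. Filled points passed an adjusted p of 0.01 and open points (H2-Eb1 and Ciita) did not, and no gene reaches the dashed lines at a log2 fold change of -1 or 1.

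Genes that process the antigen and the invariant chain were mostly higher. Of 9 endosomal genes 7 rose and 1 fell, with a median log2 fold change of 0.70. Lgmn, an asparaginyl protease that makes early cuts in the invariant chain, went from 5576 and 5741 to 12102 and 12239 normalized counts, a log2 fold change of 1.11 ± 0.023 (SE, edgeR, adjusted p = 1.4e-46). Ctss, the protease of the last cuts in B cells and dendritic cells, had a log2 fold change of 0.94, and Ifi30, the thiol reductase of the pathway, had one of 0.95. Ctsd had the highest counts and a log2 fold change of 0.64. Sppl2a, the intramembrane protease that clears the invariant chain stub, fell with one of -0.18. The proteases are also general lysosomal enzymes.

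H2-Eb2, a class II β gene next to H2-Eb1, went from 246 and 230 to 99.2 and 98.1 normalized counts, a log2 fold change of -1.27 ± 0.12 (SE, edgeR, adjusted p = 8.4e-14). Of the ubiquitin ligases that remove class II from the surface, March1 was higher (log2 fold change 0.18) and March8 lower (-0.09). Among 6 costimulatory and coinhibitory ligands 3 were higher and 1 lower. Pdcd1lg2, which encodes PD-L2, went from 109 and 81.6 to 306 and 310 normalized counts (log2 fold change 1.68, adjusted p = 3.7e-19, edgeR), and Cd274, which encodes PD-L1 and had the highest counts of this list, fell with a log2 fold change of -0.28. Of 14 class I genes 10 were higher and 1 lower, with a median of 0.11. H2-D1, the class I heavy chain with the highest counts, had a log2 fold change of 0.06, the chaperone Pdia3 had one of 0.55, and Nlrc5, the class I counterpart of Ciita, fell with one of -0.25.

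Among markers of the class II cells named above, those of B cells and alveolar type 2 cells fell, and most endothelial markers were lower. The macrophage and monocyte markers rose, and those of dendritic cells and alveolar macrophages were split. All but the B cell values are given below. T cells, whose markers are given beside those of B cells, are not among the class II cells named above. The B cell list fell in 12 of 12 genes, with log2 fold changes from -0.98 to -0.43 and a median of -0.82, beside -0.82 for H2-Ob, -0.78 for H2-Oa and -0.58 for H2-DMb2. Its summed level was 11849 and 11810 normalized counts in sham ECs, against 7128 and 6957 after PNX, and no marker was at 0. Blk, a B cell kinase, fell most (-0.98), and Cd22, a B cell receptor of sialic acids, had the highest mean count over the 4 libraries and a log2 fold change of -0.43. The T cell list fell in 8 of 8 genes, with a median of -0.87, a summed level from 2542 to 2624 normalized counts in sham ECs and from 1420 to 1457 after PNX, the largest fall in Cd8a (-1.08) and the highest counts in Lck (-0.69). H2-Ob and H2-Oa also lay within the range of the T cell list, from -1.08 to -0.66, and H2-DMb2 within that of the alveolar type 2 list, from -0.71 to -0.29. All 3 genes lay within the wider ranges of the dendritic cell list, from -1.33 to 1.45, and the alveolar macrophage list, from -0.95 to 2.99. H2-DMb2 was also within that of the endothelial list, from -0.73 to 0.28. The part of any of these cells in the falls of the H2-O genes and H2-DMb2 was not tested.

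The macrophage and monocyte list rose in 9 of the 9 genes tested, with a median log2 fold change of 0.86. Its summed level went from 23845 and 23335 to 53823 and 53889 normalized counts, with the largest rise in C1qb (2.98), a complement component, and the highest counts in Mrc1 (0.70), the mannose receptor. Alveolar macrophage markers were split, with 3 of 7 higher and 4 lower, from Fabp1 (-0.95) to Marco (2.99), and their summed level, carried by Chil3 (66367 normalized counts in sham ECs and 187941 after PNX, as means), went from 83689 and 83000 to 215182 and 210605. Dendritic cell markers were split as well, with 3 of 10 higher and 4 lower and a median of 0.05. Their summed level was 17568 and 17403 in sham ECs and 18184 and 18139 after PNX. Fscn1 rose (1.45), Ccr7, the receptor of migrating dendritic cells, fell (-1.33), and Itgax, the highest in counts, had a log2 fold change of 0.14.

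The alveolar type 2 list, with the summed levels given above, fell in 8 of 8 genes with a median of -0.62. Sftpa1 fell most (-0.71) and Sftpc, the surfactant protein C gene, had the highest counts and a log2 fold change of -0.62. Of the endothelial list 9 of 12 genes were lower and 2 higher, from Ptprb (-0.73) to Nos3 (0.28), with Cdh5, which encodes VE-Cadherin and had the highest mean count over the 4 libraries, at -0.22 (Ptprb was higher in both sham libraries), and the sum went from 612362 and 618193 to 506029 and 507885 normalized counts. The pan-leukocyte list had a median of 0.18, with 4 of 6 genes higher, the most Cd53 (0.30), and 1 lower, Coro1a (-0.14). Lcp1, with the highest counts, had a log2 fold change of 0.19. Over the same libraries the 10 class II genes summed to 96744 and 97549 normalized counts in sham ECs and to 104757 and 104492 after PNX, 7.70% higher. These lists overlap in what the cells express, since class II genes belong to B cells, dendritic cells, macrophages, alveolar type 2 cells and ECs alike, and the part of each in the class II values was not tested.

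**Figure D5:**
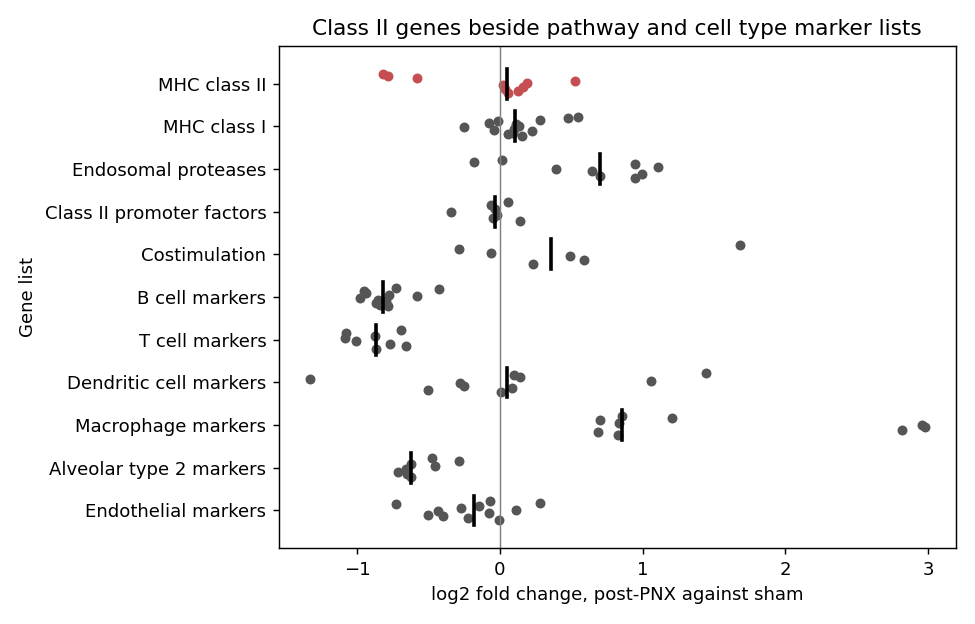
Log2 fold change, post-PNX against sham, of each tested gene in the class II list (red), in 4 pathway lists and in 6 cell type marker lists, with a bar at each median. Most class II genes lie near 0. The 3 to the left (H2-DMb2, H2-Oa, H2-Ob) lie in the range of the B cell markers, from -0.98 to -0.43, and in the wider range of the dendritic cell markers, from -1.33 to 1.45. H2-Oa and H2-Ob also lie in that of the T cell markers, and H2-DMb2 in those of the alveolar type 2 and endothelial markers.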

How the data were processed

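Per the labels and the paper's methods, stranded mRNA libraries were read from both ends, with mm10 as the genome for alignment. The submitters' processing notes name STAR, and the counting program is not given in the sources used here. The authors deposited whole-number counts, FPKM values and TPM values for each of 33068 RefSeq transcripts per library. Counts of a gene's transcripts share reads, so 1 transcript, that with the highest summed count, stood for each symbol. FPKM served to compare levels between genes and the deposited TPM was not used. Totals were 50952879 and 45261208 counts in sham and 46783725 and 41367438 in post-PNX libraries, where 3 counts, a floor for counting error only, equal 0.0589 to 0.0725 CPM.

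Counts were tested in R 4.3.3 with edgeR 4.0.16 (filterByExpr, TMM factors from 0.9985 to 1.0026, quasi-likelihood F test, no covariate, Benjamini-Hochberg adjustment over 16208 genes, threshold 0.01, with the study's fold threshold of 1 on the log2 scale beside it). The standard error is the log2 fold change over the square root of F, and normalized counts are scaled to the mean library. The study describes pools of 2 mice as replicates, and p-values measure the spread between the 2 libraries of a group. The chi-square per gene between the libraries of 1 group averaged 1.77 (sham) and 1.53 (post-PNX). This was above counting noise, so no pair was taken for repeat deposits of 1 library. Between groups it averaged 134 (replicates 1) and 119 (replicates 2). The small values within groups cannot tell 2 pools of mice from 2 preparations of 1 RNA. That the libraries are separate pools rests on the study's methods, and so does any reading of the p-values as spread between pools. Alternatives were DESeq2 1.42.0 (Wald test and size factors), library size alone, endothelial scaling, other filters and thresholds, summed transcripts, glmTreat, a replicate block and leaving out each library. The members and lists were chosen with earlier results of these data known. All members are named, and from each other list the gene with the highest mean count over the 4 libraries and those with the largest rise and fall, while Irf1, Ctss, Ifi30 and the genes that overlap a member were named after their values were seen. Siglecf, H2-Ea, Marchf1 and Marchf8 were read under Siglec5, H2-Ea-ps, March1 and March8, and Adgre1 and H2-Pb were not analysed here. Coordinates are those of RefSeq on GRCm38.p6. 1 gene of the interferon-γ list is not reported here by name.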

Additional observations from a re-analysis of the deposited data

How the results depend on the processing

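H2-Ab1, Cd74, H2-DMa, H2-DMb1, H2-DMb2, H2-Oa and H2-Ob kept their direction and their side of the adjusted p threshold of 0.01 under each alternative that tested the gene by itself for any change. In glmTreat, which tests for a log2 fold change beyond 1, 0 class II genes passed. Scaling to the endothelial markers moved the median log2 fold change of the class II genes to 0.33, with the median of all genes at 0.28, and brought H2-Eb1 (0.31) and Ciita (0.30) past the threshold. Ciita turned to -0.0044 without the first sham library and to -0.0199 without the second post-PNX library, in a range from -0.0199 to 0.065 over the libraries left out. H2-Aa lost its call with summed transcripts (adjusted p = 0.0264), in DESeq2's Wald test (adjusted p = 0.0464) and when either sham library or the first post-PNX library was left out, with log2 fold changes from 0.04 to 0.08 over the 4 omissions. With H2-DMb1 and H2-DMb2 as 1 gene, chosen after seeing the data, 5 genes were higher and 2 lower. The sources used here name no pairing by replicate number. Replicate 1 minus replicate 2 correlated between groups with r = 0.024 over 13402 genes. Libraries of a group differed little beyond counting noise, so this value cannot exclude a small effect shared by libraries of the same replicate number. With the replicate block 9441 of all genes passed, 5 class II genes were higher and 3 lower, and their median stayed at 0.05. With 2 libraries per group no permutation test can pass 0.05, and changes below the spread of 2 libraries cannot be seen.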
